A study of Mus musculus with 4 samples.

Results

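Tff2-positive goblet-like secretory cells were tracheal cells rich in the secretoglobin Scgb1a1 that also carried the trefoil factor Tff2. They were taken from the cells with at least 300 detected genes and at most 20% mitochondrial transcripts. Members had Scgb1a1 at 2% or more of their unique molecular identifiers (UMIs, each standing for 1 captured transcript), a summed share of the ciliated cell genes Ccdc153, Tmem212, Dynlrb2 and Rsph1 below 0.05%, and Tff2 at 10 or more per 10000 UMIs. The rule selected 177 cells, out of 6792 secretory cells that met the Scgb1a1 and ciliated limits and 20359 filtered cells. The cells were chosen by their measured levels of Tff2, Scgb1a1 and the 4 ciliated genes, so these levels are given as a description only.

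The study collected single-cell transcriptomes of trachea from 3 mutant lines and from wild-type mice, all on the 129S6/SvEvTac background and 5 to 8 months old. The groups were bgh mice with a Spef2 mutation (5 pooled tracheas), mice homozygous for the Cfap54gt gene-trap allele (6), nm1054 mice lacking Cfap221 (6), and wild-type mice (6). The 3 genes encode parts of the central pair apparatus of motile cilia, and their loss models primary ciliary dyskinesia. Each group was 1 library of pooled tracheas after pronase digestion, plating to remove fibroblasts and dead cell removal, steps that can set which cells reach a library. Libraries are named here by the number at the end of their cell barcodes, since the sources used here gave no genotype for a number, and mutant and wild-type cells were therefore not compared. With 1 library per genotype, no value has a biological replicate, and every interval covers counting error only.

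Goblet cells are the mucus-making cells of the airway surface. They package gel-forming mucins with trefoil factors, small secreted peptides that bind mucus and are known for their part in mucosal repair. In the trachea they arise from club-like secretory cells, and they multiply in allergic inflammation, where Clca1, Retnla and the chitinase-like protein Chil4 are classic induced genes in mice.

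Tff2-positive cells made up 5.03% of the gated secretory cells of library 1 (60 of 1192; exact 95% interval 3.86 to 6.43%), 2.09% in library 2 (28 of 1341; 1.39 to 3.004%), 1.59% in library 3 (39 of 2451; 1.13 to 2.17%) and 2.77% in library 4 (50 of 1808; 2.06 to 3.63%). The share was highest in library 1, and its interval lay above those of the other libraries. The intervals of libraries 2, 3 and 4 overlapped. The gated secretory cells themselves were a similar part of each library, between 31.3 and 34.3% of the filtered cells. Median depth was 18131, 13417, 8870 and 11036 UMIs in the Tff2-positive cells of libraries 1 to 4, against 16119.5, 12827, 8734 and 11330.5 UMIs in the other gated secretory cells. Depth thus differed more between libraries than between the 2 kinds of cell. In another gate, the gated cells with at least 2000 UMIs were thinned to that depth and 2 Tff2 UMIs were required. The share in library 1 (6.96%) was again above those in library 2 (2.78%), library 3 (2.33%) and library 4 (3.82%). The depth limit fell unevenly: it left out 112 of 1132 other gated cells in library 1, but 44, 45 and 50 in libraries 2 to 4.

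**Figure D1:**
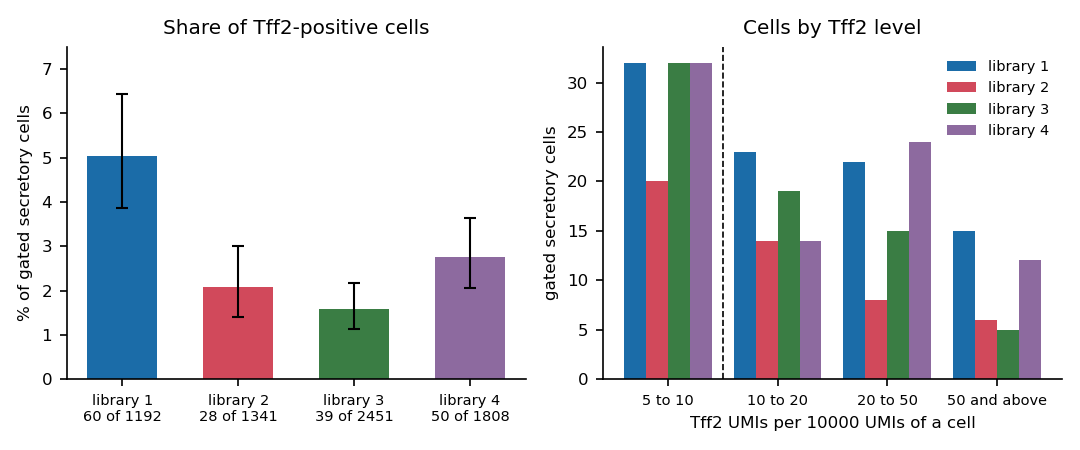
Left, percent of gated secretory cells that were Tff2-positive in each library, with exact 95% binomial intervals and the cell counts below each bar; library 1 stands at 5.03% and libraries 2 to 4 between 1.59 and 2.77%. Right, number of gated secretory cells by Tff2 level, per 10000 UMIs of the cell, with a dashed line at the threshold of 10; each library held 20 or 32 cells with a level of 5 to 10.

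Tff2 itself had a median of 48.5, 38.5, 20 and 37 UMIs per member in libraries 1 to 4, or 25.7, 20.9, 20.2 and 29.6 per 10000 UMIs. Only 3 members had 1 or 2 Tff2 UMIs, and the richest reached 266 per 10000. Together the members held 73.8% of the Tff2 UMIs of all gated secretory cells. Cells near the threshold formed no gap. The 5 lowest members lay between 10.03 and 10.5 per 10000, the 5 highest cells outside between 9.78 and 9.999, with 20 members under 12 and 36 other cells at 8 or more. Scgb1a1 had a median share of 26.7, 24.9, 9.76 and 23.9% of UMIs in members, against 17.1, 14.4, 14.02 and 12.9% in the other gated cells. Library 3 was thus the one library in which members had less Scgb1a1 than their neighbours.

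Of the markers given for the label, Scgb3a1 and Dmbt1 were higher in the members of every library, while Lyz1 rested on single cells, as described further on. Scgb3a1, a secretoglobin of goblet and club cells, was above its relative Scgb3a2 in 172 of 177 members (97.2%, 93.5 to 99.1%), against 53.8% (52.6 to 55.0%) of the other gated secretory cells. By library the shares were 96.7, 100, 100 and 94.0% in members and 60.4, 65.8, 52.5 and 42.4% in the other cells. Markers of other cell types differed in level. Of the 7 leukocyte markers, 4 had 0 UMIs in all members, among them Tyrobp and Cd3e, and the summed level was 0 to 5.02 counts per 1000000 UMIs (CPM), against 0.201 to 2.57 CPM in the other cells. Of the 5 fibroblast markers, 4 were at 0 in members, and the proliferation genes Mki67, Top2a, Birc5 and Cdk1 had no UMI in any member, against a sum of 2.16 to 12.6 CPM in the other cells. The 6 ciliated markers outside the gate, led by Sec14l3 and Tppp3, summed to 124 to 279 CPM in members and 206 to 260 CPM in the other cells. Basal markers, mostly Krt15, summed to 473 to 903 CPM against 723 to 1308 CPM. The 5 ionocyte markers summed to 22.6 to 40.9 CPM against 33.0 to 44.8 CPM. The 4 alveolar type 2 markers, of which Sftpb was the only 1 with 50 UMIs, summed to 2.55 to 13.3 CPM against 46.4 to 72.2 CPM. The 7 submucosal gland markers summed to 236 to 522 CPM against 405 to 922 CPM. In members this gland sum was mostly Aqp5, at 258, 212, 489 and 344 CPM in libraries 1 to 4. Sox9, the other gland marker with 50 UMIs, stood at 12.9 CPM in all members together, against 5.80 CPM. Its direction differed between libraries.

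Some libraries stood apart. In library 2, members were above the other cells of that library in basal markers (903 against 759 CPM) and in ciliated markers outside the gate (279 against 206 CPM). Of the 129 ciliated marker UMIs, 39 came from 1 cell, and 12 of the 28 members had any. Of the 417 basal marker UMIs, 47 came from 1 cell, and 24 members had any. The part of such RNA in the library 2 values was not tested. Library 3 members had 92.8 CPM of the 5 neuroendocrine markers, against 19.7 to 38.1 CPM in the other gated cells of the 4 libraries, but 35 of these 37 UMIs came from 1 cell. The 6 tuft cell markers stood at 158 CPM in library 3 members and 93.0 CPM in library 4 members, against 28.1 to 53.9 CPM in the other cells, with 45 of 63 and 36 of 56 UMIs in 1 cell each. For the 3 hillock markers Krt13, Krt4 and Ecm1, library 3 members were near the other gated cells of that library, at 181 against 171 CPM. Of their 72 hillock marker UMIs, 41 came from 1 cell. In libraries 1, 2 and 4 the members had 10.2, 2.17 and 18.3 CPM, below the other gated cells at 91.4, 81.9 and 224 CPM. A doublet score marked 8 members, 5 in library 3 and 3 in library 4. Without them, library 3 members still had 110 CPM of neuroendocrine, 158 CPM of tuft and 158 CPM of hillock markers, and library 4 members 72.7 CPM of tuft markers. With marked doublets removed from both groups, 14 of the 15 genes called higher in the comparison that follows were called again, all but Tmem213.

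Each gene was then compared between the summed UMIs of Tff2-positive cells and of the other gated secretory cells of the same library, as log2 of the ratio of CPM with 1 CPM added to both. A gene was called when the difference reached 2-fold in the same direction in all 4 libraries. No test was run, since cells of 1 library are not replicates, the libraries are not replicates of a genotype, and the members were chosen on the same cells. Of 11592 genes with at least 50 UMIs, 15 were higher by that rule (0.129%) and 45 were lower (0.388%). The median over all genes was -0.23, and -0.04 with Tff2, Scgb1a1, Scgb3a1 and Scgb3a2 left out of the totals, so directions of small differences depend on this scaling. Where a gene list is set beside the share of all genes, these 11592 genes were not matched to the list members for level. The 15 genes were Tff1, Clca1, Retnla, Gp2, Chil4, Tesc, Lyz1, Itln1, Vcam1, Bex4, Tmem213, Bpifb1, Nes, Scgb3a1 and Lox. Their number depends on every library being included: it was 25 without library 1, 17 without library 2, 25 without library 3 and 24 without library 4. The number of lower genes was 177, 90, 144 and 110 without libraries 1 to 4.

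Tff1, the second trefoil factor of the stomach and airway, stood at 46.8, 67.1, 90.3 and 48.1 CPM in the Tff2-positive cells of libraries 1 to 4, against 0.566, 4.56, 2.66 and 0.992 CPM in the other gated cells. The 2 ranges were far apart, with a median log2 ratio of 4.63 (3.61 to 4.93 over libraries). In the RefSeq annotation of assembly GRCm38.p6, Tff3, Tff2 and Tff1 lie next to one another, with a single non-coding gene, Gm15318, between Tff2 and Tff1. Tff3, the intestinal trefoil factor, had no UMI in any gated secretory cell, with a limit of 3 UMIs over all of them.

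The genes of goblet cell metaplasia were divided. Clca1, a secreted metalloprotease that acts on mucin, stood at 605, 405, 223 and 287 CPM in Tff2-positive cells, against 18.7, 16.4, 19.5 and 33.3 CPM in the other cells (median log2 ratio 3.997, 3.07 to 4.94). Retnla, a resistin-like protein induced by type 2 cytokines, stood at 590, 253, 77.8 and 108 CPM, against 32.0, 11.3, 7.57 and 10.3 CPM (3.72, 3.20 to 4.37). Both were higher in every library, and Retnla was highest in library 1 in both kinds of cell. Chil4 stood at 22.1, 251, 92.8 and 21.6 CPM, against 4.37, 1.81, 5.48 and 8.12 CPM, but 98 of its 116 UMIs in library 2 came from 1 cell. Chil3, its close copy, had no UMI in either group. Itln1, a lectin that binds microbial sugars, stood at 64.7, 69.3, 57.7 and 97.9 CPM, against 17.5, 10.3, 21.6 and 20.5 CPM. Filtered cells with the 4 ciliated genes at 0.5% or more of UMIs also had Itln1, at 448, 80.3, 74.2 and 94.8 CPM in libraries 1 to 4, above the members in library 1 and near their level in the others. Of the 10 metaplasia genes with at least 50 UMIs, these 4 and no others were higher in all 4 libraries. Serpinb2 and Arg1 were lower in all 4. Over all genes, 3.61% were higher and 22.2% lower by that count. Arg1 was sparse, so its direction is not firm. With Tff2 and the secretoglobins out of the totals its ratios were -0.02, -0.87, -1.26 and -1.45 in libraries 1 to 4. The median over the 10 was 0.23, against -0.23 over all genes, and was 0.47 without library 1 and 0.06 without library 4. The type 2 receptor chain Il4ra and the signal transducer Stat6 had median ratios of 0.30 and 0.08 with mixed directions, and Ccl11 and Ccl24, type 2 chemokines, had no UMI in either group.

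Among the mucins, Muc5b, the main gel-forming mucin of healthy mouse airway, stood at 626, 425, 572 and 739 CPM in Tff2-positive cells, against 267, 193, 311 and 226 CPM in the other gated cells. The ranges did not overlap, and the median log2 ratio was 1.18 (0.88 to 1.70), a 2.27-fold difference. The membrane mucins Muc4 (0.64) and Muc16 (0.60) were also higher in all 4 libraries, while Muc1 was at the same level (median ratio -0.01, -0.09 to 0.05). Muc5ac, the mucin typical of metaplastic goblet cells, was sparse: 21.3, 12.996, 0 and 4.98 CPM in members, or 34 UMIs in all, against 4.68, 2.66, 2.25 and 4.92 CPM. Its direction differed between libraries, and library 3 had none. Muc2, Muc13 and Muc15 had no UMI in members, and the goblet genes Dcpp1, Dcpp2, Dcpp3 and Lipf had none in any gated secretory cell. Of the 6 mucins with at least 50 UMIs, 3 were thus higher and 0 lower in all 4 libraries, where over all genes 3.61% were higher and 22.2% lower by that count. Their median was 0.62, and 0.32 without library 1 or 0.35 without library 2.

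Genes that fold and pack mucins followed in part. Gp2, a glycoprotein of secretory granule membranes, stood at 55.3, 52.0, 67.7 and 133 CPM in Tff2-positive cells, against 4.47, 2.31, 9.45 and 2.89 CPM in the other cells (median log2 ratio 3.68, 2.72 to 5.11), with library 4 highest. Agr2, the disulfide isomerase that mucin folding needs, stood at 637, 416, 497 and 770 CPM, against 286, 260, 321 and 401 CPM (0.81). The mucus protein Fcgbp (0.86), the granule tether Sytl2 (0.87), the granule channel P2rx4 (0.43) and the glycosyltransferases Galnt7 (0.54) and Galnt12 (0.26) were also higher in every library. Ern2, the mucous cell stress sensor, had only 20 UMIs in members and no single direction. Of the 20 genes of this group with at least 50 UMIs, 7 were higher and 1, Rab27a, was lower in all 4 libraries, with a median of 0.39. Over all genes, 3.61% were higher and 22.2% lower by that count. With Tff2 and the 3 secretoglobins out of the totals, the counts were 11 and 0, where all genes gave 9.34% higher and 10.9% lower.

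The general secretory machinery was at about the level of the other secretory cells. Of 28 genes for folding and export from the endoplasmic reticulum, 2 were higher (Kdelr3, 0.49, and Pdia6, 0.08) and 7 lower in all 4 libraries, beside 3.61% and 22.2% of all genes, with a median of -0.07. With the secretoglobins out of the totals 6 were higher and 1 lower, beside 9.34% and 10.9%, with a median of 0.17. The chaperone Hspa5, for instance, stood at 323, 327, 396 and 483 CPM in members, against 412, 469, 456 and 453 CPM. Xbp1, a regulator of secretory capacity, differed by no more than 0.10 in any library.

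The transcription factors of goblet cells were too sparse for a firm reading. Spdef, the regulator of goblet differentiation, had 5 UMIs in all members, at 0.851, 4.33, 2.51 and 1.66 CPM, against 0.566, 0.803, 0.900 and 1.22 CPM. Foxa3, which can induce goblet cells in mice, had 19 UMIs, at 5.11, 10.8, 15.05 and 3.32 CPM, against 1.85, 3.31, 2.66 and 2.03 CPM (median ratio 1.28). Creb3l1 (0.26) and the airway progenitor factor Sox2 (0.65; 78.3, 84.5, 87.8 and 49.8 CPM, against 43.2, 66.5, 50.7 and 34.3 CPM) were higher in all 4 libraries too. Klf5 and Ehf were slightly lower, and Atoh1 had no UMI. Over the 15 regulators with at least 50 UMIs, 4 were higher and 2 lower, beside 3.61% and 22.2% of all genes, with a median of 0.07. With the secretoglobins out of the totals 8 were higher and 0 lower, beside 9.34% and 10.9%.

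Secreted defence proteins went both ways, with 5 of 16 listed genes higher and 4 lower in all 4 libraries, beside 3.61% and 22.2% of all genes, so that the lower share is near that of all genes. Outside that list, Scgb3a1 stood at 95499, 75664, 91819 and 88747 CPM in Tff2-positive cells, against 45081, 36162, 34825 and 24816 CPM, the most abundant of the genes called higher. Bpifb1, a mucus-associated lipid-binding protein, stood at 4369, 3639, 1778 and 4010 CPM, against 1825, 792, 857 and 1309 CPM (median ratio 1.44). Dmbt1, also outside the list, a mucin-like scavenger that binds bacteria, stood at 515, 299, 517 and 478 CPM, against 320, 133, 168 and 189 CPM (1.24), and missed the 2-fold rule in library 1. Reg3g, an antibacterial lectin, stood at 15740, 9065, 11495 and 17527 CPM, against 8603, 4305, 4996 and 6945 CPM (1.14). Surfactant protein Sftpa1 stood at 868, 767, 818 and 1427 CPM, against 451, 323, 416 and 415 CPM (1.11). In all 5 of these genes the members lay above the other gated cells of the same library in every library. Chil1 (1.67) and the antibody transporter Pigr (0.42) were higher as well.

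The proteins on the other side were Ltf, Bpifa1, Sftpd, Cst3 and, outside this group, Sftpb. Lactotransferrin, Ltf, which withholds iron from bacteria, stood at 1528, 1631, 2363 and 1464 CPM in Tff2-positive cells, against 4649, 4537, 5884 and 5017 CPM (median log2 ratio -1.54). Bpifa1, an abundant surfactant-like airway protein, stood at 78071, 86625, 146555 and 102522 CPM, against 126530, 144656, 154422 and 162015 CPM (-0.68). Its ranges overlapped through library 3. Sftpd had a median ratio of -1.34. Sftpb, needed for the surfactant film, stood at 2.55, 4.33, 10.0 and 13.3 CPM, against 51.9, 46.0, 52.0 and 72.0 CPM (-2.75), so that Sftpd and Sftpb were lower in the same sums in which Sftpa1 was higher.

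**Figure D2:**
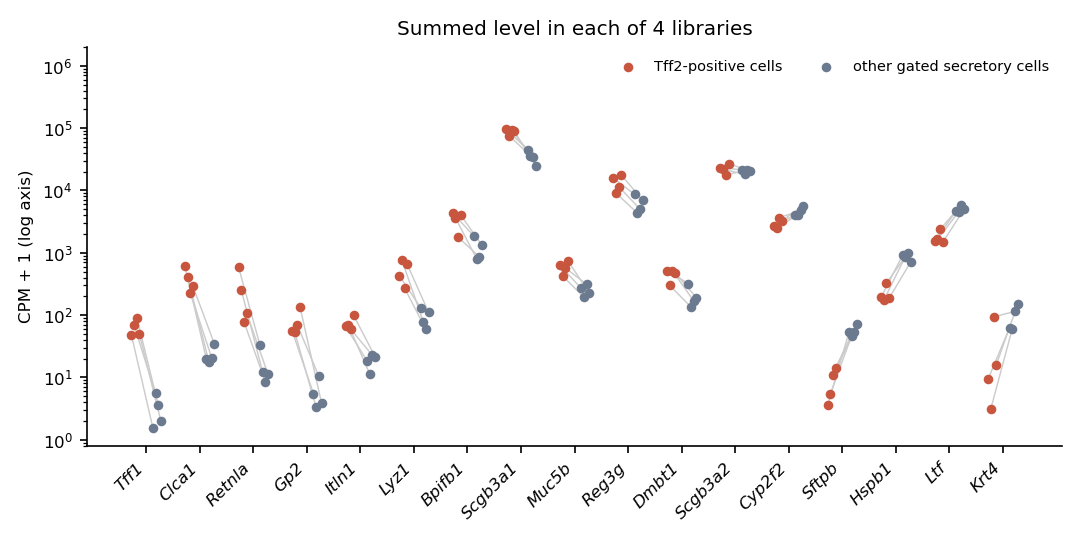
CPM plus 1 (log axis) of 17 genes in the summed Tff2-positive cells (orange-red, left in each pair) and the summed other gated secretory cells (grey-blue, right) of the 4 libraries, with a line joining the values of 1 library. Every line falls to the right for Tff1, Clca1, Retnla, Gp2, Itln1, Lyz1, Bpifb1, Scgb3a1, Muc5b, Reg3g and Dmbt1, climbs for Cyp2f2, Sftpb, Hspb1, Ltf and Krt4, and is mixed for Scgb3a2.

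Genes of club cells, the detoxifying secretory cells of the airway lining, were mostly lower. The cytochromes Cyp2f2 and Cyp2a5 had median ratios of -0.62 and -0.70, with Cyp2f2 at 2735, 2528, 3639 and 3253 CPM in Tff2-positive cells, against 4021, 4076, 4813 and 5706 CPM. Cyp4b1 stood at 120, 119, 186 and 115 CPM, against 243, 306, 311 and 308 CPM (-1.18). The ranges of both genes did not overlap. Scgb3a2 did not follow: it stood at 23253, 21831, 17718 and 26872 CPM, against 21362, 18164, 21170 and 20489 CPM, with library 3 on the other side. Of the 15 club cell genes with at least 50 UMIs, 9 were lower and 1, Krt8 (0.23), was higher in all 4 libraries. Of 18 xenobiotic enzymes 10 were lower and 0 higher, among them Gstm1 (-0.93), and of 13 glutathione and antioxidant genes 8 were lower and 0 higher, led by the heme oxygenase Hmox1 (-0.99). Over all genes, 22.2% were lower and 3.61% higher by that count. The medians of the 3 groups were -0.33, -0.46 and -0.29, against -0.23 over all genes. With the secretoglobins out of the totals, 7 of 15, 8 of 18 and 3 of 13 were lower, against 10.9% of all genes. On the same totals 3, 1 and 0 were higher, against 9.34%.

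Of 17 heat shock and immediate early genes, 14 were lower and 0 higher in all 4 libraries, beside 22.2% and 3.61% of all genes. The small heat shock protein Hspb1 stood at 192, 173, 326 and 186 CPM in Tff2-positive cells, against 909, 855, 986 and 704 CPM (median log2 ratio -2.08). Hspa1a, an inducible chaperone, stood at 139, 75.8, 286 and 377 CPM, against 435, 466, 1334 and 571 CPM (-1.93), and its near copy Hspa1b, from which reads may be misassigned, had -1.45. Fos (-1.06), Atf3 (-0.70) and Hspa8 (-0.65) were lower too, while Jun was within 0.16 in every library. The median of the 17 was -0.65, and -0.49 with the secretoglobins out of the totals, where 9 were lower and 1 higher, beside 10.9% and 9.34% of all genes. As a mean over cells instead of a sum, 8 were lower, beside 26.4% of all genes. Mitochondrial transcripts, which can mark damaged cells, had a median share of 3.397% in members and 4.02% in the other cells. Of the 6 mitochondrial genes listed for RNA quality, 5 were lower and 0 higher, beside 22.2% and 3.61% of all genes. With the secretoglobins out of the totals 1 was lower and 1 higher, beside 10.9% and 9.34%. The part of cell damage in this difference was not tested.

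Of the 45 genes called lower, 28 had no UMI in any member and 27 had under 10 expected UMIs, so most of these calls rest on few counts. The named ones were Cxcl10 (-2.91), Sftpb, Krtap1-5, Acta2, D16Ertd472e (-2.52), Adm2 (-2.45), Scel, Sparc (-2.20), Itga2 (-2.11) and Hspb1. With no UMI in members, Krtap1-5 was at least 5.16-fold lower, the contractile actin Acta2 at least 4.87-fold and the squamous gene Scel at least 4.08-fold, taking 3 UMIs over all 4 libraries as the floor. Among the 2916 genes with at least 25 CPM in the other gated cells of each library, 6 were lower (0.206%) and 3 higher (0.103%; Lyz1, Bpifb1 and Scgb3a1). The 6 were Sftpb, Hspb1, the Wnt acyltransferase Porcn (-1.77), the tetraspanin Tspan5 (-1.66), Ltf and the selenium-binding protein Selenbp1 (-1.29).

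Library 3 differed from the others in the hillock marker Krt4 and in Serpinb2. Krt4 stood at 8.51, 2.17, 92.8 and 14.9 CPM in Tff2-positive cells, against 61.8, 59.7, 113 and 147 CPM, and Serpinb2 at 2.55, 19.5, 143 and 3.32 CPM, against 153, 157, 173 and 247 CPM. In library 3 both came within 0.29 log2 units of the other cells, and that library held 41 of its 72 hillock marker UMIs in 1 cell. Of 15 cytokines and chemokines 7 were lower and 1, Il18, was higher, beside 22.2% and 3.61% of all genes. With the secretoglobins out of the totals 5 were lower and 1 higher, beside 10.9% and 9.34%. Cxcl10 stood at 0.851, 0, 12.5 and 4.98 CPM in members, against 30.3, 30.5, 31.1 and 19.0 CPM. Of 15 interferon response genes 4 were lower and 0 higher, beside 22.2% of all genes, and 2 of 15 with the secretoglobins out of the totals, beside 10.9%. The MHC class II genes had 1 of 5 lower and the Notch pathway 1 of 10, Jag1 (-1.09), neither above the 22.2% of all genes. Among 12 ion transport genes, Slc6a14 (0.61), Ano1 (0.26) and Scnn1a (0.20) were higher, and the water channels Aqp3, Aqp4 and Aqp5 and the sodium channel subunit Scnn1b, which had no UMI in members, were lower in all 4 libraries. That made 3 of the 12 higher and 4 lower, beside 3.61% and 22.2% of all genes. The median of that group, -0.57, was -0.16 without library 4 and -0.34 without library 2.

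**Figure D3:**
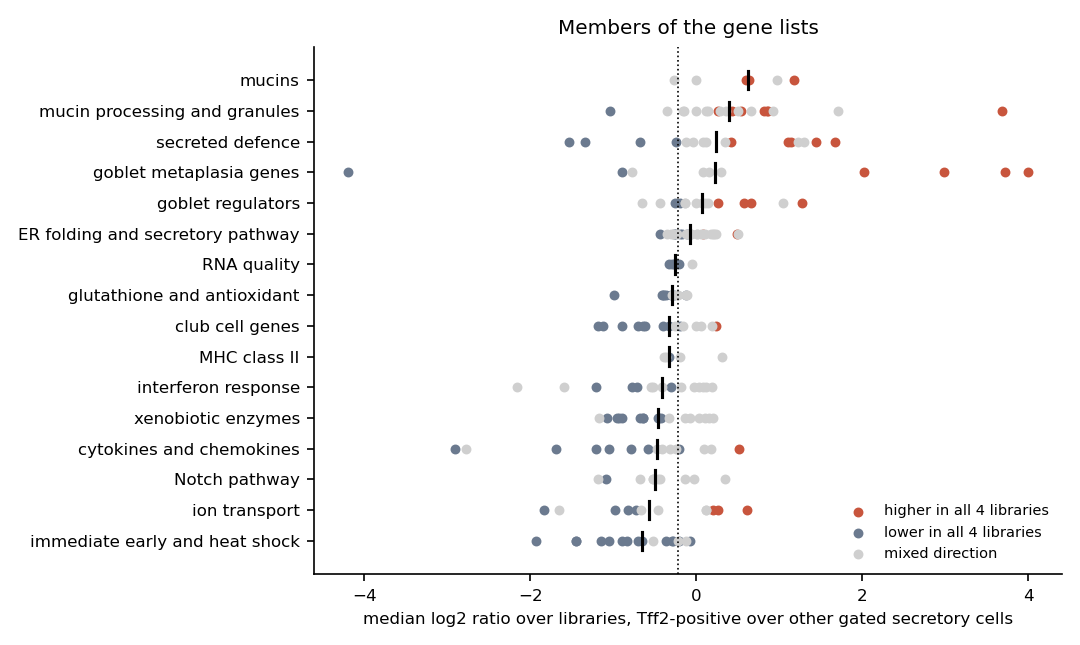
Median log2 ratio over the 4 libraries of Tff2-positive over other gated secretory cells, for the members with at least 50 UMIs of 16 gene lists (1 dot per gene); orange-red dots were higher and grey-blue dots lower in all 4 libraries, light grey dots had mixed directions, black ticks are list medians, and the dotted line is the median of all genes, -0.23. Mucins lie highest, with a median of 0.62, and immediate early and heat shock genes lowest, with -0.65.

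To see which genes moved with the Tff2 level rather than at the threshold, the gated secretory cells were divided by their Tff2 content: 5451 cells with none, 1048 with up to 5 per 10000 UMIs, 116 with 5 to 10, and 70, 69 and 38 members with 10 to 20, 20 to 50, and 50 or more. Scgb3a1 reached its high level below the threshold. Its median over libraries was 31487, 48941, 87082, 86515, 87423 and 94660 CPM along these 6 steps. Muc5b (214, 318, 533, 558, 511 and 912 CPM) and Bpifb1 (931, 1658, 3001, 3719, 3277 and 4277 CPM) were also higher at 5 to 10 than at lower Tff2, and Muc5b then stayed between 511 and 558 CPM up to 50. Tff1 behaved otherwise, with 1.42, 4.06, 2.23, 8.49, 48.0 and 212 CPM, so that its level was highest at 20 or more Tff2 per 10000. Its UMIs were not confined to those cells. The many cells without Tff2 held 6, 68, 48 and 6 Tff1 UMIs in libraries 1 to 4. Those of the last step held 51, 18, 16 and 19. Clca1 (16.5, 28.6, 52.0, 146, 327 and 572 CPM) and Gp2 (2.53, 6.27, 20.9, 36.0, 53.7 and 120 CPM) had a higher median at each step. In single libraries this did not always hold: at the last step Clca1 was lower than at 20 to 50 in libraries 2 (246 against 665 CPM) and 4 (321 against 415 CPM), and Gp2 in library 3 was 57.9 CPM at 5 to 10 and 38.0 CPM at 10 to 20. The marker Dmbt1 (159, 244, 471, 475, 486 and 363 CPM) changed little from 5 to 50 and was lower at the last step. Retnla (7.11, 21.7, 78.4, 77.0, 151 and 560 CPM) ranged from 6.98 to 2209 CPM over libraries at that step.

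On the lower side, Hspb1 had 976, 655, 245, 213, 238 and 94.1 CPM and Krt4 had 99.9, 55.0, 21.9, 6.42, 9.85 and 6.47 CPM along the same steps. Ltf had 5362, 3770, 1979, 1354, 1933 and 2176 CPM. Cyp2f2 was lower by less, at 4554, 4166, 3176, 3242, 3075 and 2111 CPM. In the medians of these genes, cells with 5 to 10 Tff2 per 10000 were nearer to the cells with 10 to 20 than to the cells without Tff2. Library 3 was an exception for Hspb1, with 727 CPM at 5 to 10, against 364 CPM at 10 to 20 and 1051 CPM without Tff2. The highest step held 15, 6, 5 and 12 cells of libraries 1 to 4, so its values rest on few cells.

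**Figure D4:**
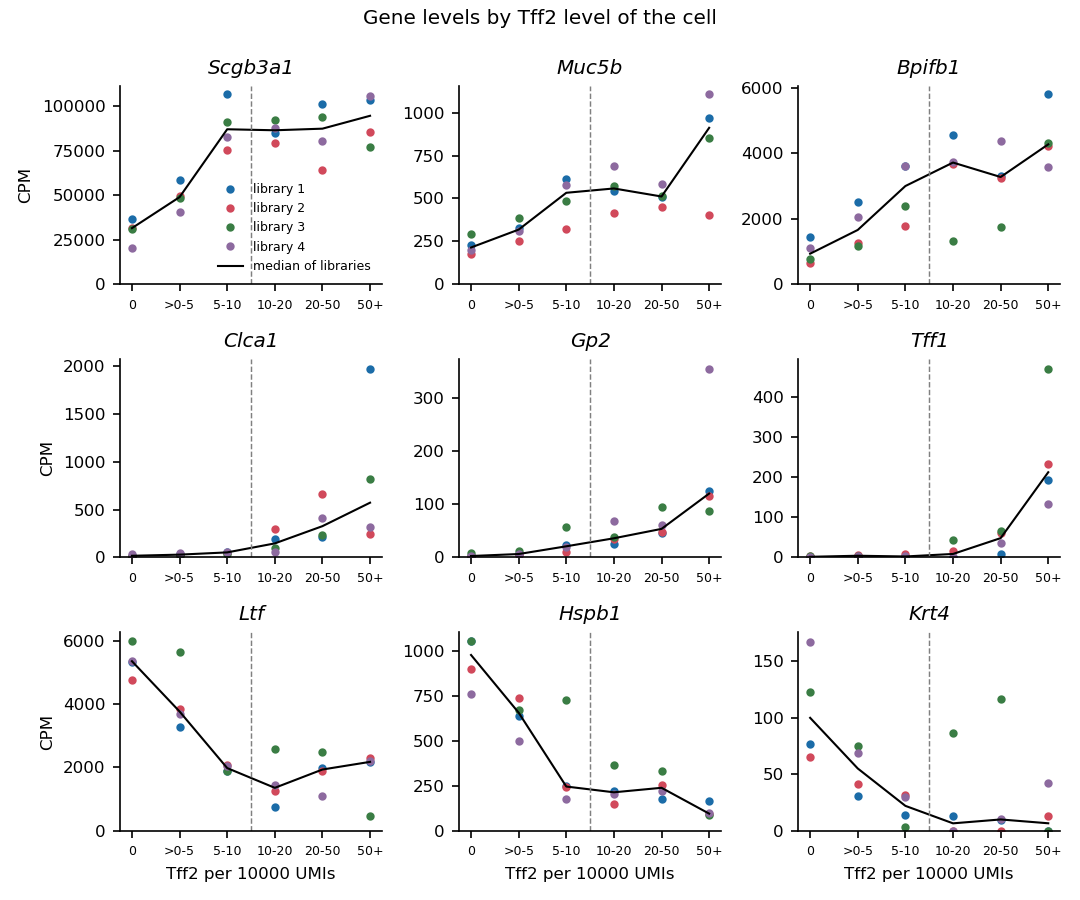
CPM of 9 genes in gated secretory cells summed by Tff2 level (UMIs of Tff2 per 10000 UMIs of the cell), with 1 dot per library and a line through the median of the 4 libraries; the dashed line marks the threshold of 10. Scgb3a1 reaches 87082 CPM already at 5 to 10, while Tff1 climbs to 212 CPM only at 50 and above, and Hspb1 stands at 976 CPM without Tff2 and 94.1 CPM at the top.

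Among the members, the goblet genes were unevenly spread. At full depth, 50 of the 177 cells had no UMI of Clca1, Retnla, Gp2 or Tff1, 55 had 1 of the 4 genes, 37 had 2, 29 had 3 and 6 had all 4. Of the 6615 other gated secretory cells, 5311 had none, 1151 had 1, 140 had 2, 13 had 3 and 0 had all 4. The last count allows a share of up to 0.0454% if 3 cells are taken as the limit. Clca1 and Retnla were found together in 33 members, 44.6% of those with Clca1 and 62.3% of those with Retnla. Gp2 was shared by 41 members with Clca1, which is 53.9% of the cells with Gp2, and by 24 with Retnla. Muc5b, found in 165 members, was present in 71 of the 74 cells with Clca1, 52 of 53 with Retnla, 75 of 76 with Gp2 and 36 of 37 with Tff1. Deeper cells have more UMIs of every gene, which these counts share.

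After each cell was thinned to 2000 UMIs, which left out 6 of 177 members and 251 of 6615 other gated cells, Clca1 was found in 21.6% of members (15.7 to 28.6%) and 3.49% of the other cells (3.05 to 3.97%). Retnla was found in 17.0% and 1.21%, Gp2 in 14.04% and 0.896%, Tff1 in 7.60% and 0.346%, and Muc5b in 59.1% and 33.9%. Unthinned, the shares were 41.8 and 12.8% for Clca1, 29.9 and 3.78% for Retnla, 42.9 and 4.49% for Gp2, and 20.9 and 1.10% for Tff1. Basal and ciliated cells were taken for comparison. Basal cells had Krt5 and Krt14 together at 0.2% or more of UMIs, Scgb1a1 under 2% and the ciliated sum under 0.05%. The Scgb1a1 limit by itself leaves out cells rich in secretory RNA. In 676 such thinned cells, Tff2, Retnla, Gp2 and Muc5b had no UMI (an upper limit of 0.544%). Clca1 was found in 0.148% and Tff1 in 0.444%, with a median of 4355 UMIs before thinning against 13490 UMIs in members. The basal share of Tff1 rests on 3 cells (0.0916 to 1.29%), all in libraries 2 and 3, and none of 1310 thinned ciliated cells had a Tff1 UMI (an upper limit of 0.281%). The share of 0.346% in the other secretory cells lay between these, while that in members was above both.

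Some values rested on single cells. Lyz1, the lysozyme of Paneth and gland cells and a marker given for this population, stood at 430, 767, 271 and 654 CPM in Tff2-positive cells, against 131, 77.2, 57.8 and 109 CPM in the other gated cells. Yet 492 of 505, 294 of 354, 57 of 108 and 366 of 394 of these UMIs belonged to 1 cell in each library, and only 14.7% of members had any, against 8.60% of the other cells. With the richest cell of each sum left out, its ratio was -3.17, 1.15, 1.46 and -1.001, so Lyz1 did not mark the members as a whole. Lyz2, its close copy, showed no single direction (median ratio 0.08). Clca1, Retnla, Gp2, Tff1, Tesc and Bex4 were 2-fold higher in all 4 libraries also without the richest cell. The other 9 of the 15 genes then missed 2-fold in at least 1 library, Scgb3a1 only in library 2 with 0.96. Leaving out 1 cell takes more from 28 to 60 members than from 1132 to 2412 other cells, so it tends to lower the ratios. The median over all genes was -0.61 and 482 genes were called lower. Genes without a UMI in members can only rise, and 39 of the 45 genes called lower before were called again. The less abundant of the 15, the calcium-binding Tesc (8.51, 17.3, 12.5 and 19.9 CPM, against 0.668, 1.25, 0.941 and 0.767 CPM), Bex4, Vcam1, Tmem213, Nes and Lox, had 31 to 98 UMIs in members. For Vcam1, Tmem213, Nes and Lox the counting intervals of the 2 groups met in at least 1 library.

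Between libraries, the members could be compared only for libraries 1 and 4, which had at least 50. Of 1409 genes with at least 100 UMIs, 47 were apart by 2-fold or more with separate counting intervals (3.34%), 38 higher in library 1 (2.7%) and 9 higher in library 4 (0.639%). In the other gated secretory cells of these libraries, 168 of 9220 genes were apart (1.82%), 54 higher in library 1 (0.586%) and 114 higher in library 4 (1.24%), and 11 of the 47 were apart there in the same direction and 0 in the opposite one. Many more genes reached 100 UMIs in the larger group, so these percentages are not set against each other.

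Inhba, an activin subunit, stood at 168 CPM in library 1 members, against 19.9 CPM in those of library 4, the largest ratio at 8.42-fold. Retnla followed with 590 and 108 CPM (5.47-fold), then the keratin Krt75 with 106 and 19.9 CPM (5.34-fold) and Tm4sf1 with 88.5 and 18.3 CPM (4.85-fold). Single cells weighed on these genes: 1 cell of library 1 gave 87 of 197 Inhba, 297 of 693 Retnla, 59 of 125 Krt75 and 35 of 104 Tm4sf1 UMIs. Mt1, a metal-binding metallothionein, was broader, with UMIs in 57 of 60 members of library 1 and 39 of 50 of library 4, and stood at 1167 and 307 CPM. It was also apart in the other secretory cells, at 1805 and 827 CPM. Lars2 was the one gene of the first 10 that was higher in library 4, at 156 CPM against 40.9 CPM in library 1, and was within 1.27-fold in the other secretory cells. Sox4 (3.66-fold), Ly6k (3.34-fold), Sprr1a (3.31-fold) and A2ml1 (3.27-fold) completed these 10, with 67 of 200 Sprr1a and 47 of 102 A2ml1 UMIs of library 1 in 1 cell. Of the goblet genes, Clca1 was 2.11-fold higher in library 1, while Gp2 was 2.40-fold higher in library 4. The secreted defence gene Lcn2 was 2.55-fold higher in library 4. In library 1, 1 cell gave 149 of 711 Clca1 UMIs. In library 4, single cells gave 25 of 80 Gp2 and 48 of 178 Lcn2 UMIs. Depth (18131 against 11036 UMIs per member) differed between these libraries as well, and its part in the differences was not tested.

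**Figure D5:**
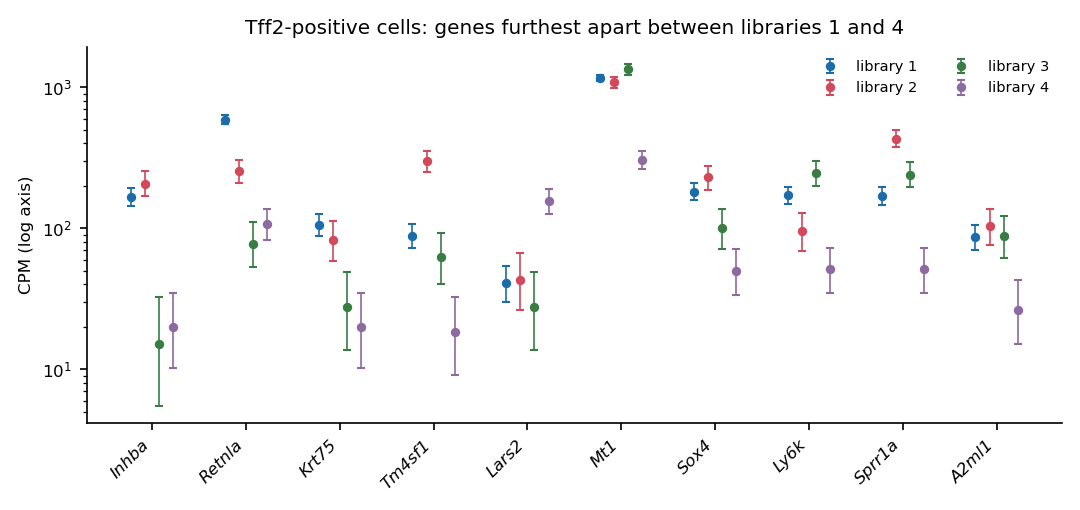
CPM (log axis) with exact 95% Poisson intervals of the 10 genes furthest apart between the Tff2-positive cells of libraries 1 and 4, with libraries 2 and 3 beside them. Library 1 lies above library 4 in all but Lars2, and library 2 lies near or above library 1 for Inhba, Tm4sf1, Sox4, Sprr1a and A2ml1.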

How the data were processed

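Per the file headers, the authors deposited 1 matrix of raw UMI counts per gene and barcode, written by Cell Ranger 6.0.1 for all 4 libraries, and per the submitters' processing notes the build was GRCm39. The annotation release is not given in the sources used here. It held 22583 features and 21667 barcodes, numbered by library, with 39658153 to 53491773 UMIs per library. Counts were summed per library over members and over other gated secretory cells and scaled to CPM. Genes needed 50 UMIs. Intervals were exact (Clopper-Pearson for shares, Poisson for counts). The scripts used Python 3.11.15, numpy 2.4.6, scipy 1.17.1 and scikit-learn 1.9.0, and the steps were tested on simulated data. Doublets were scored from 2 simulated doublets per cell and kept, apart from 1 alternative that removed the top 0.8% per 1000 cells (888 cells, 8 members). Free RNA was not subtracted. Alternatives changed the gate, scaling, pseudocount, depth and libraries included. Libraries shared 52 barcode sequences, and 2 members carried such a sequence.

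Members and the 31 lists were chosen with earlier results of these data known. The text names up to 20 genes called higher by size, the 10 lowest, list members, the 10 furthest apart between libraries, and gate and marker genes. Porcn, Tspan5 and Selenbp1 were named after their values were seen. Of the 333 list genes, 2 were not measured. No promoter or protein sequence is shown because none carries a result here.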

Additional observations from a re-analysis of the deposited data

Results flagged for a closer look

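Most Tff2 UMIs of library 4 lay outside the gated cells. In the filtered cells of that library, cells with 10 or more Tff2 per 10000 UMIs but Scgb1a1 under 2% held 46870 of 51634 Tff2 UMIs, against 2570 in its Tff2-positive gated cells. In library 1 such cells held 622 of 7683. This signal came from 3 cells, which had 18790, 17387 and 10168 Tff2 UMIs, or 39.1, 38.1 and 42.8% of their transcripts, at total depths of 48008, 45622 and 23743 UMIs. They carried Muc5b at 13606 CPM together, against 608 CPM in the members and 252 CPM in the other gated cells, and Gp2 at 1994 CPM, against 74.3 and 4.98 CPM. Tff1 had 2035 UMIs in the 3 cells, against 151 in all 177 members. Scgb1a1 was at only 537 CPM, and neither Clca1 nor Retnla had a UMI. One of them held all 610 UMIs of Dcpp3, 117 of Dcpp1 and 11 of Dcpp2, secreted proteins known from salivary glands, found in no other filtered cell. All 3 came from 1 library, and whether they form a class of their own was not tested.

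Tff2 was also found in cells that the ciliated limit left out: 54 filtered cells with Scgb1a1 at 2% or more and the ciliated sum at 0.05% or more reached 10 per 10000 and held 2849 Tff2 UMIs, with 1136, 249, 442 and 1022 in libraries 1 to 4. A further 15 cells failed both limits. Of 280 filtered cells at or above the Tff2 threshold, 177 were therefore members. Whether ciliated cells, doublets or free RNA account for the others was not tested.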

How the results depend on the processing

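The share by library had libraries 1 and 4 above 2 and 3 under each alternative run on it, but not its size: with Tff2 at 5 per 10000 it was 7.72, 3.58, 2.90 and 4.54% in libraries 1 to 4, with 20 per 10000 3.10, 1.04, 0.816 and 1.99%, and with the gate on thinned cells 6.96, 2.33 and 3.82% in libraries 1, 3 and 4. The 15 higher genes became 8 with 10 CPM added, 3 among genes with 25 CPM, 6 without the richest cell, and 17 to 25 without 1 library. The 45 lower genes became 250 (Tff2 at 20), 110 (ciliated sum under 0.02%), 513 (thinned), 84 (mean over cells), 68 (secretoglobins out of the totals), 4 (10 CPM added), 6 (25 CPM), 482 (without the richest cell), 25 (gate on thinned cells) and 90 to 177 without 1 library. The 47 genes apart between libraries became 7 with 500 UMIs and 279 over all 4 libraries (13.4% of 2077).

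The thinned gate, the 25 CPM minimum, the richest-cell omission and the count over all 4 libraries were chosen after seeing the data. List medians moved as follows. Mucins had 0.41 (Tff2 at 5), 0.26 (Tff2 at 20), 0.36 (ciliated sum), 0.22 (thinned), 0.83 (secretoglobins out), 0.40 (gate thinned) and 0.32 to 0.60 without 1 library. Mucin processing had 0.64 (Tff2 at 20), 0.36 (1000 genes), 0.63 (thinned), 0.58 (secretoglobins out), 0.22 (10 CPM added), 0.14 (25 CPM) and 0.37 to 0.40. Metaplasia genes had -0.11 (Tff2 at 5), -0.020 (Tff2 at 20), 0.84 (thinned), 0.44 (secretoglobins out), 0.032 (gate thinned) and 0.057 to 0.47. Club cell genes had -0.51 (Tff2 at 20), -0.51 (ciliated sum), -0.53 (mean over cells) and -0.11 (secretoglobins out). Secreted defence had 0.019 (thinned) and 0.41 (secretoglobins out), and the ER list -0.16 and 0.17. Ion transport had 0.0067 (thinned), -0.14 (10 CPM added), 0.12 (25 CPM) and -0.85 to -0.16. Cytokines had -0.73 (Tff2 at 20), -2.27 (thinned) and -0.15 (10 CPM added). Interferon genes (-1.80) and xenobiotic enzymes (-0.88) moved when thinned. The glutathione list had -0.46 (Tff2 at 20) and -0.11 (secretoglobins out). Notch genes had -1.19 (thinned), -0.86 (mean over cells), -0.090 (10 CPM added) and -0.058 (gate thinned). Heat shock genes had -0.89 (thinned), -0.49 (secretoglobins out), -0.48 (gate thinned) and -0.62 to -0.47 without 1 library. RNA quality genes had -0.33 (thinned), -0.31 (mean over cells) and -0.072 (secretoglobins out). Thinning leaves few UMIs and shifted the median of all genes to -0.57. The other causes were not tested. Of 747 ratios of named genes under alternatives, 674 kept their call or their lack of one, 67 lost it, 6 gained it and 0 reversed. A reversal needed an opposite sign of the median over libraries and a call in either setting. Sign changes in single libraries, as for Lyz1 without its richest cell, were therefore not counted. No paired analysis was possible because the data carry no replicate numbers and no result comes from a test; members were set beside other cells of the same library throughout. Leaving out a library could not be done for the comparison of libraries 1 and 4.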
